A study of Homo sapiens with 12 samples.

Results

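The respiratory chain is the set of enzyme complexes in the inner mitochondrial membrane that carry electrons to oxygen, and 51 of its genes, of 58302 in the count table, were examined in oral squamous cell carcinoma (OSCC) cells with and without rapamycin. They were taken from a fixed list of symbols matched to Ensembl identifiers, and comprised the 13 mitochondrially encoded protein genes and 38 nuclear genes. All 51 were counted well enough to be among the 15826 genes tested. MT-ATP6 and MT-ATP8, which belong to the ATP synthase (complex V), were on the list, whereas the nuclear ATP synthase subunits were described apart from it.

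The study used rapamycin, an inhibitor of the kinase mTOR, to induce autophagy in OSCC cells, and sequenced RNA and m6A-immunoprecipitated RNA. RNA-seq comprised 2 libraries of cells treated with 100 nM rapamycin and 2 libraries of untreated control cells. For m6A (N6-methyladenosine, a methylated base in RNA), 1 immunoprecipitated library and 1 input library were made from each of HSC3 and CAL33, both established OSCC cell lines, after 3 days with or without 100 nM rapamycin. The labels place both rapamycin RNA-seq libraries in HSC3 and both control RNA-seq libraries in CAL33, so that by the labels treatment and cell line cannot be told apart, whereas in the m6A libraries number 1 marks HSC3 and number 2 marks CAL33 under each treatment. The duration of rapamycin in the RNA-seq cells is not given in the labels, and nothing says that the libraries came from separate cultures, so the p-values measure only the spread between these libraries.

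Complex I passes electrons from NADH, and complex II from succinate, to ubiquinone. Complex III hands them to cytochrome c, and complex IV to oxygen. Complexes I, III and IV mix subunits made from mitochondrial DNA with subunits made from nuclear genes, while complex II is wholly nuclear. The mitochondrial genes are copied as long RNAs from the heavy and the light strand and then cut apart, mostly at the tRNAs that lie between them.

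The 4 RNA-seq libraries held between 18492273 and 23763098 counts. The squamous epithelial markers summed to 1082 and 4783 CPM (counts of a gene scaled to a common library size) in control replicates 1 and 2 and to 879 and 3422 CPM in rapamycin replicates 1 and 2, with all 8 detected. The number 2 libraries were the higher ones in each treatment. KRT5, a basal keratin, was at 34.2 and 1703 CPM in the controls and at 6.10 and 327 CPM with rapamycin, while KRT14 had no counts in either number 1 library. EPCAM, an epithelial adhesion molecule, was present in all 4 libraries. Unlike the sum, it was higher in number 1 of each treatment, at 272 and 165 CPM in the controls and 218 and 157 CPM with rapamycin. Fibroblast markers summed to between 8.79 and 46.7 CPM, with 3 of 6 at 0 in every library, and leukocyte markers to at most 0.658 CPM, with PTPRC at 0. With the number as a block, 3 of the 8 squamous markers, KRT5, KRT6A and KRT14, were lower with rapamycin (adjusted p = 6.1e-06, 0.00374 and 0.0327 by edgeR's quasi-likelihood test) and 0 were higher. Over all genes tested, 3.5% were lower and 4.65% higher in that fit. The KRT14 call rests on the number 2 libraries alone. The other 5 did not pass, and of these KRT17 and CDH1 had log2 fold changes of 0.38 and 0.08, and TP63, EPCAM and SFN of -0.22, -0.19 and -0.91. The part of these markers in the results was not tested.

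In the comparison of rapamycin with control, 1 of the 51 respiratory chain genes was called, and only in the fit with the library number as a block. This was UQCRFS1, which encodes the Rieske iron-sulfur protein of complex III. It was lower in both rapamycin libraries than in both controls, at about 0.551 times the control level in that fit. Without the block, the quasi-likelihood test of edgeR, adjusted over all genes tested after Benjamini and Hochberg, called 0 of the 51 (0.0% of the 15826 genes were called; 446 genes, 1 of them a member, had an unadjusted p under 0.05), and DESeq2 called 42 genes and no member, with 7 members left without an adjusted p. With the block 1 member was lower and 0 were higher, against 3.5% and 4.65% of all genes tested (8.15% in either direction), so the share of members called was not above that of all genes.

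The members nevertheless lay on the low side. In 12 of the 51 (23.5%) both rapamycin libraries were below both controls, against 16.5% of all genes, and in 1 both were above, against 15.0%. Within the numbered pairs 27 members (52.9%) were lower with rapamycin in both, against 31.8% of all genes, and 7 were higher in both, against 34.6%. The median log2 fold change was -0.16 over the 51, -0.20 over the mitochondrially encoded members and -0.13 over the nuclear ones, beside 0.06 over all genes. Both medians of the members changed sign with 1 library left out: the mitochondrially encoded one was 0.05 without control replicate 2 and 0.0068 without rapamycin replicate 1, and the nuclear one was 0.10 and 0.08.

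The mitochondrially encoded mRNAs did not move as one. They took 4.90% and 6.78% of the counts in control replicates 1 and 2, and 5.52% and 6.15% in rapamycin replicates 1 and 2. The rapamycin values lay between the control values, and the means differed by -0.0075 percentage points (exact permutation test, two-sided, p = 1, where 2 libraries against 2 can reach no less than 0.333). Within the pairs the share was 0.619 percentage points higher with rapamycin for number 1 and fell by 0.634 percentage points for number 2. Within that total, 6 of the 13 were lower with rapamycin in both pairs and 3 were higher in both, and the lowest values of the blocked fit were those of MT-ND2, MT-ND1 and MT-ND6, with log2 fold changes of -0.87, -0.81 and -0.80.

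MT-ND1 and MT-ND2 encode membrane subunits of complex I and lie first among the heavy-strand protein genes, just after the 2 ribosomal RNAs. MT-ND1 was at 4530 and 3124 CPM in control replicates 1 and 2 and at 2953 and 1556 CPM in rapamycin replicates 1 and 2. MT-ND2 was at 2979 and 3584 CPM in the controls and at 2366 and 1348 CPM with rapamycin. For both genes the groups did not overlap, and the lowest value of the 4 was that of rapamycin replicate 2. The log2 fold change was -0.76 ± 0.48 (SE) for MT-ND1 and -0.82 ± 0.42 (SE) for MT-ND2, neither past the threshold (adjusted p = 0.9997 for both by edgeR's quasi-likelihood test). Within the pairs MT-ND1 differed by -0.62 and -1.01, and MT-ND2 by -0.33 and -1.41, on the log2 scale.

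MT-ND6, also a complex I subunit, is the one protein gene read from the light strand. It was at 176 and 80.7 CPM in the controls and at 120 and 38.6 CPM with rapamycin, so that the groups overlapped and the number 2 library was the lower one in each treatment. Its log2 difference was -0.55 in pair 1 and -1.06 in pair 2, and the fold change of the fit without the block, -0.69, came to 0.01 without control replicate 1. With the block, MT-ND1, MT-ND2 and MT-ND6 still missed the threshold, at adjusted p = 0.0596, 0.0654 and 0.0536 by the same test. MT-ND6 lies opposite the heavy-strand RNA, and since the use of strand in counting is not given, reads from both strands cannot be told apart there.

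MT-ND4, a further membrane subunit of complex I, went the other way. It was at 8312 and 10680 CPM in the controls and at 10532 and 14700 CPM with rapamycin, an overlap of rapamycin replicate 1 with control replicate 2. The log2 difference was 0.34 and 0.46 within the pairs. The fold change of 0.41 ± 0.36 (SE) did not pass the threshold without the block (adjusted p = 0.9997, edgeR's quasi-likelihood test), nor did MT-ND4 pass with it (adjusted p = 0.386, same test). MT-CYB, cytochrome b of complex III, was at 3290 and 4767 CPM in the controls and at 2807 and 2753 CPM with rapamycin, which left the groups apart at a log2 fold change of -0.54. The other mitochondrially encoded mRNAs differed less between groups, and their rapamycin values did not stand clear of the controls. MT-CO1, MT-CO2 and MT-CO3, the catalytic core of complex IV, had log2 fold changes of 0.16, -0.13 and -0.20. MT-ATP6 and MT-ATP8 were at -0.14 and -0.27, and the complex I subunits MT-ND3, MT-ND4L and MT-ND5 at -0.20, 0.08 and 0.09. MT-ATP8 and MT-ATP6 share 46 bases, and MT-ND4L and MT-ND4 share 7, so reads there may be split between the genes or not counted, by a rule that is not given.

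Per kilobase of gene, MT-CO1 was the highest of the mitochondrially encoded protein genes in every library. It ranged from 10398 CPM per kb in control replicate 1 to 14824 CPM per kb in rapamycin replicate 2. MT-ATP8, which shares bases with MT-ATP6, was the lowest, from 37.6 to 70.5 CPM per kb. This ranks reads counted on each gene and not levels of transcripts. Ratios within a library do not depend on the scaling between libraries. The ratio of MT-ND4 to MT-ND1 per kilobase was 1.27 and 2.37 in control replicates 1 and 2, and 2.47 and 6.55 in rapamycin replicates 1 and 2. Both rapamycin values were above both control values, although rapamycin replicate 1 differed little from control replicate 2. MT-ND1 and MT-ND2 together made up 15.3% and 9.85% of the mitochondrially encoded mRNA counts in the controls and 9.91% and 4.59% with rapamycin, and here the groups overlapped. These ratios were chosen after their values were seen and were not tested.

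**Figure D1:**
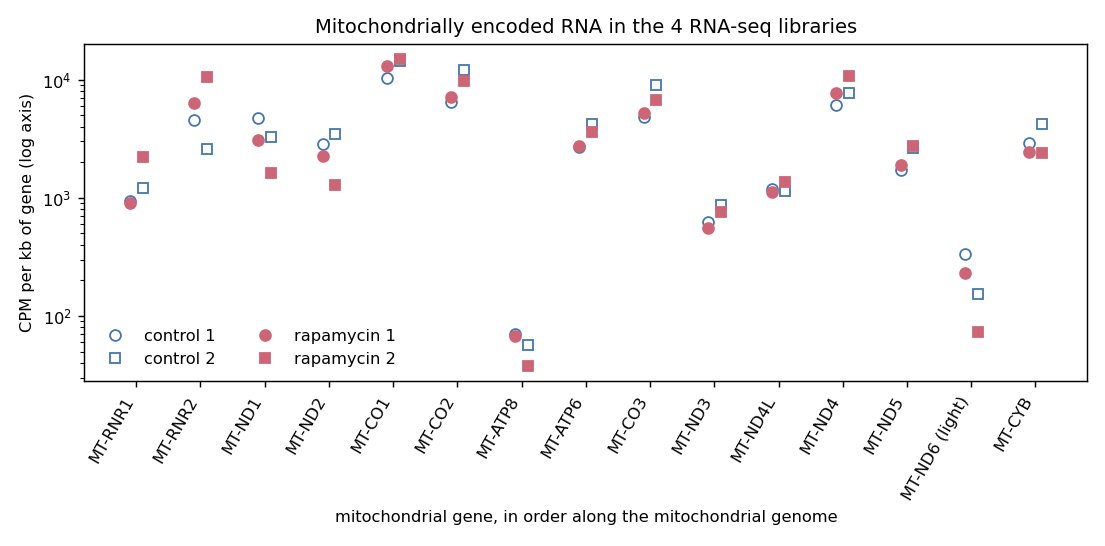
CPM per kilobase of gene (log axis) for the 2 rRNA genes and 13 protein genes of mitochondrial DNA, in genome order, with 1 point for each of the 4 RNA-seq libraries (open, control; filled, rapamycin; circles, number 1; squares, number 2). MT-ND1, MT-ND2 and MT-CYB are lower in both rapamycin libraries than in both controls, MT-RNR2 is higher in both, and MT-ND6 is lower in the number 2 library of each treatment.

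MT-RNR2, the 16S ribosomal RNA just before MT-ND1 on the heavy strand, is not a respiratory chain gene but was counted beside it. It was at 7131 and 4067 CPM in the controls and at 9865 and 16277 CPM with rapamycin, with no overlap. Its log2 difference was 0.47 in pair 1 and 2.00 in pair 2, and with the block it was higher with rapamycin (adjusted p = 0.0377, edgeR's quasi-likelihood test). MT-RNR1, the 12S ribosomal RNA, differed by -0.08 and 0.88 within the pairs. Together the rRNAs took 0.803% and 0.519% of the counts in the controls and 1.10% and 1.79% with rapamycin. The library kit is named as one for mRNA, so these shares are of what that kit carried over, and the part of carry-over in them was not tested. The ratio of MT-RNR2 to MT-ND1 per kilobase was 0.965 and 0.798 in the controls and 2.05 and 6.41 with rapamycin. Like the ratios above, it was chosen after its values were seen and was not tested. Counts on nuclear pseudogene copies of the mitochondrial mRNAs came to between 0.48% and 0.74% of the mitochondrially encoded mRNA counts, and reads that the rRNAs may share with nuclear copies were not assessed.

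The 1 nuclear member that was called, and only with the block, belongs to complex III. UQCRFS1 was at 133.7 and 128.6 CPM in control replicates 1 and 2 and at 71.7 and 72.8 CPM in rapamycin replicates 1 and 2. The 2 values of each group lay close together and the groups were far apart. The log2 fold change was -0.86 ± 0.27 (SE), with an unadjusted p of 0.0327 and an adjusted p of 0.9997 by edgeR's quasi-likelihood test, and with the block it was -0.86 ± 0.25 (SE) with an adjusted p of 0.0350. The difference was -0.90 in pair 1 and -0.82 in pair 2, and between -0.80 and -0.89 with each library left out. With the block and upper-quartile normalization the adjusted p was 0.0577, which ends the call.

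The promoter of UQCRFS1 is shown because it is the one member that passed, and those of UQCRC2 and SDHD because these members differed most between number 1 and number 2. Each runs from 120 bases before the annotated transcription start to 30 bases after it, 5′ to 3′ on the gene's strand, from RefSeq on GRCh38.p14. Capitals mark matches on either strand to GCGCA, 1 free base and GCGC (a paired site of the factor NRF1), to CCGGAAG (an ETS core, bound by NRF2/GABP) and to GGGCGG (a GC box).
UQCRFS1, chr19:29213122-29213271, minus strand: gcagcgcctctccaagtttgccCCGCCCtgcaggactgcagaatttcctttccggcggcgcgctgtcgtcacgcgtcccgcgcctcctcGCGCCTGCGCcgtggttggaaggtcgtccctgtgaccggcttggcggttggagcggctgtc
UQCRC2, chr16:21953241-21953390, plus strand: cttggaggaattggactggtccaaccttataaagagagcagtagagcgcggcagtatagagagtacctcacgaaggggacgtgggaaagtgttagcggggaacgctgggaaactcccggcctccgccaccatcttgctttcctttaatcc
SDHD, chr11:112086753-112086902, plus strand: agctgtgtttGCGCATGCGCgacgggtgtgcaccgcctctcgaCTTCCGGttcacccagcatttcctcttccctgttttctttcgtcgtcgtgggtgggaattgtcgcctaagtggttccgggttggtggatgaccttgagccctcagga

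The UQCRFS1 window held 1 match to the NRF1 site and 1 GC box, the SDHD window 1 match to the NRF1 site and 1 ETS core, and the UQCRC2 window none of the 3. Of the 38 nuclear members, 31 had a promoter in the table. The NRF1 site was in 6 of these windows (19.4%), against 4.48% of 35116 windows of the same length. Those 35116 windows were not limited to the genes tested or to 1 per gene, whereas each member gave 1. The ETS core was in 10 (32.3%), against 7.63%, and the GC box in 16 (51.6%), against 36.1%. These matches are a description of the letters in the windows and not of binding.

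Of the 7 nuclear complex III members, UQCRFS1 included, 4 (57.1%) were lower in both pairs and 0 were higher in both, against 31.8% and 34.6% of all genes, and the median log2 fold change was -0.09. CYC1, cytochrome c1, was at 171 and 295 CPM in the controls and at 122.5 and 218 CPM with rapamycin. Its values overlapped between groups, yet it was lower within each pair, by a log2 difference of -0.48 and -0.44. UQCRH, the hinge protein that contacts cytochrome c1, had the highest log2 fold change of the complex, 0.13, from 74.1 and 85.0 CPM in the controls and 60.3 and 114 CPM with rapamycin. The rapamycin values lay on both sides of the controls.

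Of the 16 nuclear complex I members, 8 were lower in both pairs and 2 higher in both, against 31.8% and 34.6% of all genes. The median log2 fold change was -0.10. NDUFS3, a core subunit of the arm that reaches into the matrix, was at 52.3 and 68.8 CPM in the controls and at 36.0 and 38.3 CPM with rapamycin. NDUFB9, an accessory subunit of the membrane arm, was at 188 and 158 CPM in the controls and at 114 and 107 CPM with rapamycin. In both genes the groups did not overlap, with log2 fold changes of -0.70 and -0.65, and neither passed the threshold with or without the block. The lowest and the highest fold changes of the complex belonged to genes with few counts: NDUFA9 had 31 to 87 counts per library and a log2 fold change of -0.84, and NDUFV2 had 30 to 49 counts and 0.57. NDUFV2, an iron-sulfur subunit at the site where NADH is oxidised, was the 1 member above both controls in both rapamycin libraries, at 1.39 and 1.48 CPM in the controls and 1.58 and 2.69 CPM with rapamycin.

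Complex II couples the chain to the citric acid cycle. Of its 4 subunits, 3 were lower with rapamycin in both pairs and 1 higher, against 31.8% and 34.6% of all genes. The median log2 fold change was -0.35. SDHD, one of the 2 membrane anchors, was at 17.1 and 40.3 CPM in the controls and at 7.26 and 36.2 CPM with rapamycin. The number 1 libraries were low in both treatments, and the pair differences were -1.24 and -0.15. SDHC, the other anchor, was higher with rapamycin in both pairs, by 0.14 and 0.23, from 58.7 and 91.0 CPM in the controls and 64.5 and 107 CPM with rapamycin. SDHA, the flavoprotein that oxidises succinate, was at 249 and 182 CPM in the controls and at 156 and 170 CPM with rapamycin, without overlap, at a log2 fold change of -0.40. None of the 4 passed the threshold.

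Of the 11 nuclear complex IV members, 6 were lower in both pairs and 1 higher in both, against 31.8% and 34.6% of all genes. The median log2 fold change was -0.16. Both rapamycin libraries were below both controls in 4 of the 11 (36.4%), against 16.5% of all genes. For the nuclear members of complexes I, II and III this held in 3 of 16 (18.8%), 1 of 4 (25%) and 1 of 7 (14.3%). Both were above both controls in 1 complex I member and in none of the other nuclear members, against 15.0% of all genes. COX7B, a small accessory subunit, was at 62.9 and 63.0 CPM in the controls and at 47.2 and 45.3 CPM with rapamycin. The groups were well separated, at a log2 fold change of -0.45 ± 0.28 (SE). The difference did not pass the threshold without the block (adjusted p = 0.9997, edgeR's quasi-likelihood test) or with it (adjusted p = 0.329, same test). COX6A1 had the highest value of the complex, 0.14, on 79 to 112 counts per library. NDUFA4, long assigned to complex I and now counted in complex IV, was lower in both pairs, by -0.32 and -0.35.

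**Figure D2:**
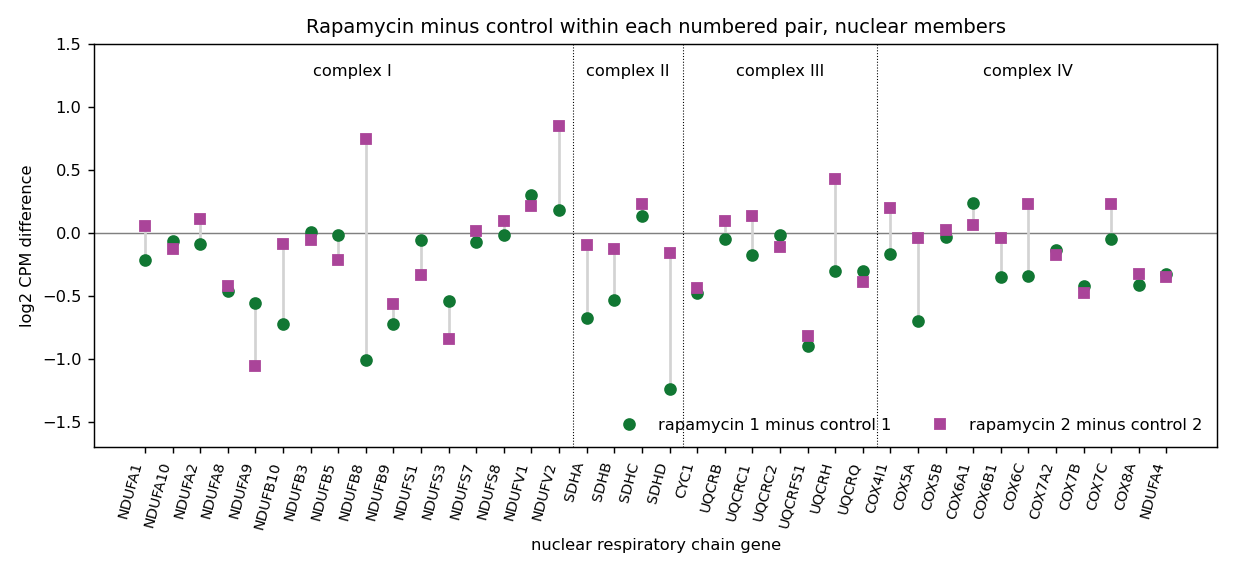
Log2 CPM in the rapamycin library minus that in the control library of the same number for the 38 nuclear members, grouped by complex (circles, number 1; squares, number 2; grey lines join the pair; the dotted lines part the complexes). UQCRFS1 lies at -0.90 and -0.82 with little spread, 21 members lie below 0 in both pairs and 4 above 0 in both, and NDUFB8 and SDHD differ most between the pairs.

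More members differed by library number than by treatment. Number 2 was compared with number 1 in a fit with treatment as a term, which asked how the members differ between the 2 kinds of cells that the numbers may mark. By edgeR's quasi-likelihood test, 11 members were higher and 2 lower in number 2, against 17.0% and 20.2% of all genes tested. All 11 that were higher are nuclear, and both that were lower, MT-ND1 and MT-ND6, are mitochondrially encoded. This split holds only for the genes past the threshold. The median log2 difference was 0.33 over the mitochondrially encoded members and 0.38 over the nuclear ones, beside -0.03 over all genes. MT-CO2, for one, was higher in number 2 by 0.67 and just missed the threshold (adjusted p = 0.0528 by the same test). The share of members called, 13 of 51, was below the 37.3% called over all genes. The genes named from this comparison were chosen after their values were seen, apart from MT-ND1, MT-ND6, NDUFS1, SDHC and SDHD.

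UQCRC2, a core subunit of complex III, was at 86.5 and 297 CPM in control replicates 1 and 2 and at 85.6 and 275 CPM in rapamycin replicates 1 and 2. The libraries fell into 2 levels by number, with a log2 difference of 1.73 ± 0.26 (SE, adjusted p = 5.3e-06, edgeR's quasi-likelihood test), and hardly differed by treatment. NDUFB5, an accessory subunit of complex I, followed the same split, at 17.2 and 60.8 CPM in the controls and 17.0 and 52.5 CPM with rapamycin, with a log2 difference of 1.72. SDHD, described above, differed by 1.76. COX5A, COX7C and NDUFA4 of complex IV were higher in number 2 by 1.16, 1.02 and 0.90 on the log2 scale, and NDUFB10 of complex I by 1.13. CYC1, UQCRB, SDHC and NDUFS1 had log2 differences between 0.66 and 0.81. UQCRFS1, in contrast, differed by -0.02 ± 0.25 (SE) between the numbers.

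MT-ND6 fell by 1.38 on the log2 scale from number 1 to number 2 (SE 0.26, adjusted p = 0.00012 by edgeR's quasi-likelihood test), and MT-ND1 by 0.73 (SE 0.27, adjusted p = 0.0334). Both were thus lowest where the number was 2 and rapamycin was present. The nuclear members together took 0.265% and 0.333% of the counts in control replicates 1 and 2 and 0.222% and 0.304% in rapamycin replicates 1 and 2, again higher in number 2 of each treatment. Of the 8 squamous markers, 5 were higher and 1 was lower in number 2 by the same test, against 17.0% and 20.2% of all genes tested. TP63, a transcription factor of basal epithelium and one of the 5, was at 19.7 and 332 CPM in the controls and at 13.5 and 353 CPM with rapamycin, whereas CDH1, the epithelial cadherin, was the 1 lower in number 2, with a log2 difference of -0.67.

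**Figure D3:**
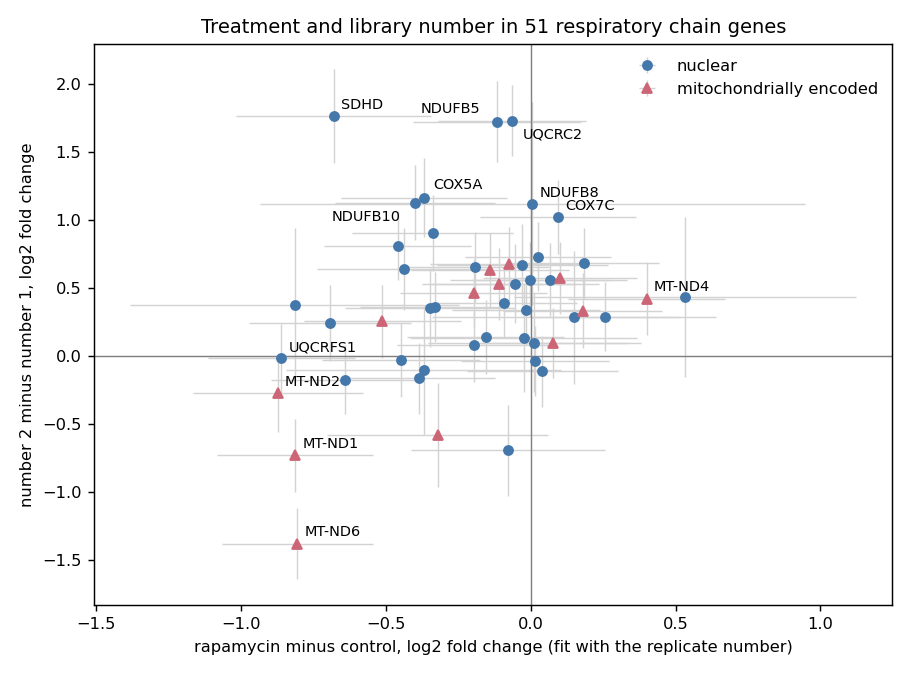
Log2 fold change of rapamycin against control (horizontal axis, fit with the number as a block) and of number 2 against number 1 (vertical axis, same fit) for the 51 members, with standard errors as grey bars (circles, nuclear; triangles, mitochondrially encoded). UQCRFS1 lies at -0.86 on the treatment axis and -0.02 on the number axis, UQCRC2, NDUFB5 and SDHD lie above 1.7 on the number axis, and MT-ND6 is the lowest at -1.38.

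Genes that make, assemble or use the chain were read from further lists. Of 29 genes for mitochondrial transcription, replication and RNA processing, 25 had a negative log2 fold change, against 7357 of the 15826 genes tested. The median was -0.61, and in 19 (65.5%) both rapamycin libraries were below both controls, against 16.5% of all genes. With the block 3 of the 29 were lower and 0 higher by edgeR's quasi-likelihood test, against 3.5% and 4.65% of all genes. In that fit 15 of the 29 had an unadjusted p under 0.05, as did 3736 of all 15826 genes tested. ELAC2, which cuts the 3′ ends of mitochondrial tRNAs out of the long RNAs, was at 239 and 212 CPM in the controls and at 110 and 94.3 CPM with rapamycin (adjusted p = 0.00714 by that test with the block). FASTKD5, needed to process mitochondrial mRNA ends that no tRNA marks, was at 61.6 and 42.4 CPM in the controls and at 29.0 and 13.7 CPM with rapamycin (adjusted p = 0.00677). TFAM, which packages mitochondrial DNA and starts its transcription, was at 86.3 and 70.9 CPM in the controls and at 54.0 and 32.7 CPM with rapamycin (adjusted p = 0.0417). In all 3 the groups did not overlap, and without the block none passed. Under upper-quartile scaling with the block TFAM no longer passed (adjusted p = 0.0664).

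Of 45 assembly factors tested, 3 were lower and 0 higher with the block, against 3.5% and 4.65% of all genes, and the median was -0.30. BCS1L, which inserts the Rieske protein made by UQCRFS1 into complex III, was at 43.1 and 42.2 CPM in the controls and at 23.3 and 14.5 CPM with rapamycin (adjusted p = 0.0166, edgeR's quasi-likelihood test with the block). TMEM70, an assembly factor of ATP synthase, was at 40.7 and 34.3 CPM in the controls and at 20.9 and 10.1 CPM with rapamycin (adjusted p = 0.0107). COA7, an assembly factor of complex IV, was at 48.0 and 35.0 CPM in the controls and at 31.6 and 11.6 CPM with rapamycin (adjusted p = 0.0345). In each of them the groups did not overlap, and rapamycin replicate 2 was the lowest. Under upper-quartile scaling with the block COA7 no longer passed (adjusted p = 0.0575).

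Of all genes, 31.8% were lower in both pairs and 34.6% higher. The 18 nuclear ATP synthase subunits had a median log2 fold change of -0.30, with 14 lower in both pairs and 2 higher, and none passed with or without the block. The 20 complex I subunits outside the list that were tested had a median of -0.25, with 10 lower in both pairs, none higher and none called. Of 6 complex III and IV genes outside the list, CYCS fell and COX6B2 rose with the block, where 3.5% of all genes were lower and 4.65% higher. CYCS, cytochrome c, which carries electrons from complex III to complex IV, was at 193 and 273 CPM in the controls and at 114 and 115 CPM with rapamycin, without overlap (log2 fold change with the block -1.003, adjusted p = 0.0181, edgeR's quasi-likelihood test). COX6B2, a testis form of a complex IV subunit, rested on 43 and 0 counts in the controls and 152 and 8 with rapamycin, and its direction turned to -1.16 without rapamycin replicate 1 in the fit without the block. Of 7 nuclear regulators of respiratory genes, PPRC1, a coactivator of the PGC-1 family, was lower with the block, from 164 and 170 CPM to 120 and 47.4 CPM (adjusted p = 0.0325, and 0.0538 under upper-quartile scaling, which ends the call), and the median of the 7 was -0.08.

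For m6A, the authors deposited 1 list of peaks for each cell line and treatment, with a fold enrichment of immunoprecipitated RNA over input for each peak. There is no replicate list, and the depth behind the peaks is unknown. Few respiratory chain genes had a peak. The HSC3 control list held peaks on 4 of the 51 members, the HSC3 rapamycin list on 7, the CAL33 control list on 3 and the CAL33 rapamycin list on 0. Over all genes tested the shares with a peak were 17.6%, 17.5%, 16.1% and 14.2% in the same order.

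Of the mitochondrially encoded mRNAs, MT-CO2, a core subunit of complex IV, had a peak in 3 lists. Its peak ran from position 7705 to 7853 of the mitochondrial genome in HSC3 control (hg38), from 7616 to 7972 in HSC3 rapamycin and from 7675 to 7883 in CAL33 control, so that all 3 overlapped in the coding sequence. The fold enrichment was 1.5, 5.27 and 2.18, low among the 3930, 3952 and 3625 peaks of these lists, whose medians were 33.6, 33.3 and 42.6. By p-value, however, these peaks ranked 91st, 6th and 26th.
MT-ND3 had a peak in both HSC3 lists, at 3.52 in the control and 3.09 with rapamycin. MT-ND5 and MT-ND6 had one only in HSC3 rapamycin, at 1.47 and 14.6, and MT-ND2 only in CAL33 control, at 1.75. The MT-ND6 peak, from 14469 to 14673, is listed on the minus strand, which is the gene's own.

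Among nuclear members, NDUFS1, the largest iron-sulfur subunit of complex I, had a peak in its 3′ UTR in both HSC3 lists (chr2:206115237-206115357 in the control and chr2:206115207-206115417 with rapamycin, minus strand). The fold enrichment was 11.2 and 30.1, and the false discovery rate was 0.245 and 7.1e-06. NDUFA10, an accessory subunit, had a 3′ UTR peak in HSC3 control at chr2:239958500-239958620, also at 11.2 and a false discovery rate of 0.245. The peak of NDUFS3 in HSC3 rapamycin had a fold enrichment of 24.1 over 3 exonic blocks of 329 bases in all, and that of NDUFS8, an iron-sulfur subunit of complex I, 9.02. NDUFA8, an accessory subunit, had a coding peak in CAL33 control at 3.78. Every nuclear member with a peak thus belongs to complex I, which holds 16 of the 38 nuclear members. No peak fell on UQCRFS1 in any list. The RNA of NDUFS1, NDUFA10, NDUFS8 and NDUFA8 had log2 fold changes of -0.22, -0.10, 0.04 and -0.43 with rapamycin, none past the threshold, and that of NDUFS3 is given above.

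The mitochondrial rRNAs had the highest fold enrichment on the mitochondrial genome in each list. The highest peak on MT-RNR2 had a fold enrichment of 3490 in HSC3 control, 324 in HSC3 rapamycin, 1760 in CAL33 control and 41.3 in CAL33 rapamycin. MT-RNR1 was at 650 and 1350 in HSC3 and at 387 and 15.7 in CAL33. The highest MT-RNR2 peak had a lower fold with rapamycin in both cell lines, though by p-value it ranked 3rd in every list. A second MT-RNR2 peak was at 65.4 in HSC3 control and 61.6 in HSC3 rapamycin. In CAL33 a second peak was listed only in the control, at 670. MT-RNR1 was higher with rapamycin in HSC3 and lower in CAL33, and no test of these values was possible with 1 list each. In the CAL33 rapamycin list 1436 of the 3079 peaks were at or above the highest rRNA peak, against 1, 6 and 8 peaks in the HSC3 control, HSC3 rapamycin and CAL33 control lists.

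**Figure D4:**
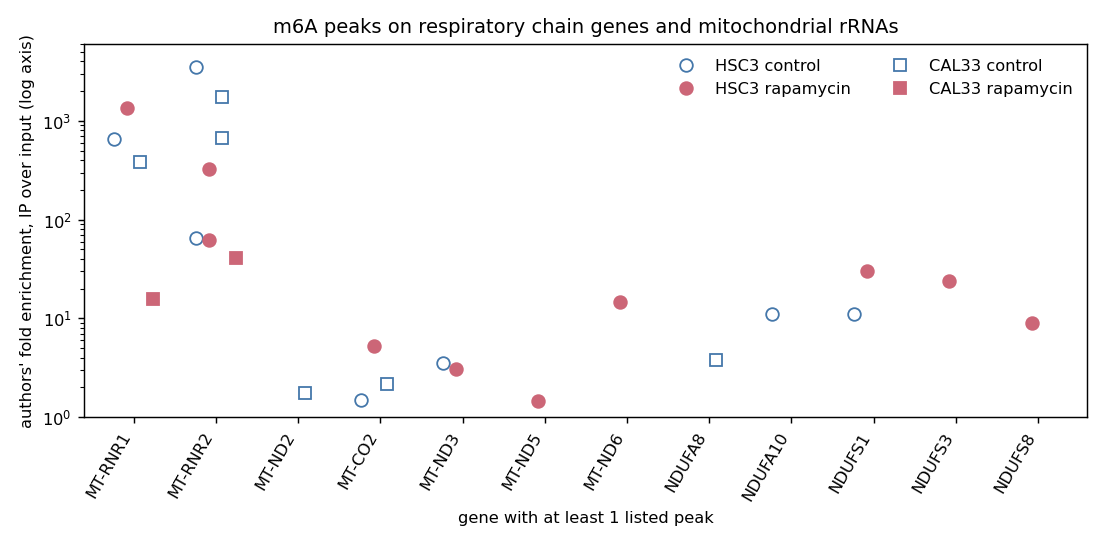
Fold enrichment of immunoprecipitated RNA over input, as the authors deposited it (log axis), for each m6A peak on a respiratory chain gene or a mitochondrial rRNA (circles, HSC3; squares, CAL33; open, control; filled, rapamycin). The rRNA peaks reach 3490, peaks on mitochondrially encoded mRNAs lie between 1.47 and 14.6, and the CAL33 rapamycin list holds only rRNA peaks, at 15.7 and 41.3.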

How the data were processed

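As RNA-seq data the authors deposited raw counts of reads on each gene under Ensembl identifiers, with no normalization (a stranded mRNA-seq kit, per the labels). The submitters' processing notes name hg38, cutadapt 2.5, HISAT2 2.1.0, featureCounts 1.6.3 and HOMER 4.10.4 without their roles, while the table's name points to HTSeq. Strand use, the treatment of overlapping genes and the peak caller are not given in the sources used here. For m6A, the authors deposited 1 peak list for each cell line and treatment, with a ratio of immunoprecipitated RNA to input (fold enrichment), a log10 p-value, a log10 false discovery rate, and the same p-value again, unlogged, under the name of a score. Peaks are listed per pair of libraries, and positions were counted from 1. Reads were not analysed here.

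Counts were fitted in R 4.3.3 with edgeR 4.0.16 on the whole table: filterByExpr (15826 of 58302 genes kept), TMM, the robust quasi-likelihood test and Benjamini-Hochberg adjustment at 0.05. CPM are counts scaled to a common library size after TMM, and log2 CPM used a prior count of 0.5. Levels of different genes were compared only per kilobase. Symbols were found for 57532 identifiers. Alternatives were DESeq2 1.42.0, the library number as a block, other normalizations, other filters and each library left out. Blocked fits under other normalizations were added after the data had been seen. The fits were checked on counts simulated from the blocked fit, with the same change in both pairs. That check covers the sign and size of recovered changes, not genes whose pairs differ. The numbers were paired because number 1 minus number 2 correlated between treatments (r = 0.91 over 15826 genes, which are not independent, and 0.76 over the 51 members) and because a number marks a cell line in the m6A libraries; the labelled cell lines of the RNA-seq samples contradict it. The common dispersion fell from 0.636 to 0.0610 with the block. Blocked values are given where they change a call, and for the squamous markers, COX7B, MT-ND1, MT-ND2, MT-ND4 and MT-ND6.

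The members and all gene lists were chosen with earlier results of these data known. Named are all mitochondrially encoded members, nuclear members that passed with or without the block or had a peak, the highest and lowest of each complex, up to 3 genes from each further list, and genes chosen after their values were seen (NDUFB8, NDUFB9, CYC1, SDHA, NDUFA4, MT-RNR1, TP63, EPCAM, KRT17, CDH1, SFN and those of the comparison by number). The lists were other complex I subunits, other complex III and IV genes, ATP synthase subunits, assembly factors, mitochondrial transcription and RNA processing, regulators, rRNAs and markers of 3 cell types.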

Additional observations from a re-analysis of the deposited data

Results flagged for a closer look

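NDUFB8, an accessory subunit of complex I, moved in opposite directions in the numbered pairs, with a log2 difference of -1.01 in pair 1 and 0.75 in pair 2, on 5 to 21 counts per library. UQCRH likewise differed by -0.30 in pair 1 and 0.43 in pair 2. The number of mitochondrially encoded members with an m6A peak was higher by 2 with rapamycin than in the control in HSC3 and differed by -2 in CAL33, with 1 list for each cell line and treatment. These differences between pairs and between cell lines were not tested, and a pair or a cell line has a single value under each treatment.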

How the results depend on the processing

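Of the comparison of rapamycin with control, the count of changed genes depended on the block: 0 without it, 1290 with the replicate block, 1165, 1230 and 1337 with the block under upper-quartile, RLE and non-mitochondrial TMM scaling, and 42 with DESeq2. The count of changed members was 1 with the replicate block, 1 under RLE and non-mitochondrial TMM scaling with it, and 0 under upper-quartile scaling. The block changed no call of a member other than UQCRFS1. Under upper-quartile scaling with the block UQCRFS1, COA7, TFAM and PPRC1 lost their calls (adjusted p = 0.0577, 0.0575, 0.0664 and 0.0538, edgeR), and the other 10 named genes called with the block did not, MT-RNR2, CYCS, COX6B2 and KRT5 among them. With a library left out the blocked fit has no residual degrees of freedom and was not run.

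The share of counts on mitochondrially encoded members changed sign with the rRNAs added (0.776 percentage points), and ranged from -0.948 to 0.933 with each library left out, being positive without control replicate 2 and without rapamycin replicate 1. The median of mitochondrially encoded members ranged from -0.39 to 0.053 in the same way, and that of nuclear members from -0.44 to 0.10. Leaving out 1 library leaves the numbers unequal between groups, and these log2 fold changes then crossed 0: MT-ND3 (-0.44 to 0.053), MT-ND4L (-0.049 to 0.21), MT-ND5 (-0.19 to 0.43), MT-ND6 (-1.73 to 0.013), MT-CO1 (-0.021 to 0.41), MT-CO2 (-0.48 to 0.39), MT-CO3 (-0.55 to 0.32), MT-ATP6 (-0.40 to 0.23), MT-ATP8 (-0.76 to 0.10), NDUFA10 (-0.29 to 0.12), NDUFS1 (-0.53 to 0.22), NDUFS8 (-0.048 to 0.16), SDHC (-0.21 to 0.54), SDHD (-1.98 to 0.33), UQCRH (-0.40 to 0.52), COX6A1 (-0.00044 to 0.34), COX6B2 (-1.16 to 9.44), KRT5 (-7.15 to 2.27), KRT14 (-9.65 to 6.63), KRT17 (-7.06 to 7.75), TP63 (-3.70 to 3.21), EPCAM (-0.54 to 0.22), CDH1 (-0.35 to 0.58), MT-RNR1 (-0.26 to 1.05), NDUFB8 (-1.21 to 0.90), NDUFB5 (-1.20 to 1.004), NDUFB10 (-1.18 to 0.26), NDUFA4 (-0.85 to 0.18), UQCRC2 (-1.16 to 1.05), UQCRB (-0.41 to 0.40), COX5A (-1.18 to 0.32) and COX7C (-0.55 to 0.64). Of the other alternatives, the replicate block turned TP63 to -0.22 and no filter on low counts turned CDH1 to -0.0017.

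For number 2 against number 1, 3057 genes and 3 members changed without the treatment term, and 3927 genes with at least 10 counts in every library. Members with a peak in HSC3 control fell to 2 at a false discovery rate of at most 0.05 and to 2 at a fold of at least 4, and in CAL33 control to 0 at that fold. The other counts stayed within 1.5 times their value. The depth of the peak lists is unknown, and NDUFA9, NDUFV2, NDUFB8 and COX6B2 rest on few counts.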
